A study of Homo sapiens with 12 samples.

Results

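The 10 genes described here encode the receptors, kinases and first targets of the gp130 and STAT3 signalling route, as measured in Daoy cells, an established human medulloblastoma (MB) line, after culture in astrocyte conditioned media (ACM) or control DMEM. They were chosen by name as IL6ST, IL6R, LIFR, OSMR and CNTFR (receptors), JAK1, JAK2 and STAT3 (signal transduction), and SOCS3 and PIM1 (target genes), out of 25275 genes tested on the arrays. A probe was assigned to a gene through its RefSeq accession, and the brightest probe of a gene leads. All 10 genes were on the array with 17 probes in total, 8 of them with 1 probe each, and all 10 passed the filter on dim probes, which asks that 1 or more of the groups have all their arrays called well above background by the scanner software. Under the labels of the scanner output, none (0) of the 10 passed the study's thresholds of more than 2-fold change with p of 0.05 or less for ACM at either passage.

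Cytokines of the interleukin 6 family signal through gp130, the shared receptor chain encoded by IL6ST. Interleukin 6 and CNTF first bind their own receptors, IL6R and CNTFR, while LIF and oncostatin M use the signalling chains LIFR and OSMR paired with gp130. The bound complex activates Janus kinases, which phosphorylate STAT3. STAT3 then moves to the nucleus and switches on target genes, among them SOCS3, which shuts the same receptors down, and PIM1, a kinase that favours survival. Reactive astrocytes are a known source of these cytokines, which places the route among those through which soluble astrocyte factors can reach tumor cells.

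Daoy cells were grown in ACM or in DMEM with fetal bovine serum over 1 passage (P1) or over 3 (P3), a passage lasting 48 h, with 3 samples in each of the 4 groups and 12 single-colour Agilent arrays in all. ACM came from primary hippocampal astrocytes of newborn Sprague Dawley rats that had themselves been kept in DMEM with serum, so the conditioned medium held rat proteins while the arrays read human transcripts. The labels speak of independent experiments, but do not say that a replicate number marks a shared day. All samples came from a single cell line, so the p-values rest on the spread between cultures of that line. In P1 DMEM and P3 ACM, whose arrays lay on more than 1 slide, this spread also includes slide differences.

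The arrays lay on 3 slides of 4. The 3 P1 ACM arrays shared a slide with P3 ACM replicate 1, P3 ACM replicates 2 and 3 shared a slide with P1 DMEM replicates 1 and 2, and P1 DMEM replicate 3 shared a slide with the 3 P3 DMEM arrays. No slide held both media of a passage, so a fit with slide as a block compares them through arrays of the other passage. For P1 the link on slide 1 was P3 ACM replicate 1 alone. For P3 the link on slide 3 was P1 DMEM replicate 3 alone. The share of probes well above background was 90.9% to 94.6% on slide 1, 74.2% to 80.2% on slide 2 and 88.1% to 91.0% on slide 3. The authors also deposited a table of processed log2 values, and each of its 12 columns ranks as the scanner output of another sample (Spearman correlation of at least 0.99997 with that array, and 0.953 to 0.992 with the array of its own label). The medians of the columns lie between 9.0158 and 9.0166, and each column differs from the quantile-normalized log2 values of the array it ranks as by a median of 0.0015 or less per probe. Which labels are right cannot be told from the files. The results below follow the scanner output, and values from the deposited table under its own labels are given beside those they alter. Of the 7 tumor cell markers, VIM, NES, SOX2, GLI2 and OTX2 were well above background on all 12 arrays, and ZIC1 and PTCH1 on 11. Of the 7 astrocyte markers, GFAP and S100B were well above background on 7 arrays, SLC1A2 on 11 and AQP4, ALDH1L1, SLC1A3 and GJA1 on all 12. At P1 ALDH1L1 passed the study's thresholds as higher in ACM and AQP4 as lower, and S100B was at least 2.22-fold higher, a lower bound because none of the P1 DMEM arrays had it well above background. AQP4 was called lower at P3 too. Of the 4 microglia and leukocyte markers on the array CX3CR1 was well above background on 8 arrays and PTPRC, ITGAM and CD68 on all 12, with CX3CR1 called higher in ACM at P1 and CD68 at P3. Their part in the results was not tested.

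The receptors were examined first, to ask for which astrocyte cytokines Daoy cells held receptor RNA. Receptor protein was not measured on the arrays. Levels below are log2 intensities relative to the 75th percentile of all probes on the same array, so 0 marks that percentile. In RNA from whole cultures, fewer expressing cells and less RNA per cell cannot be told apart. A level belongs to its own probe and cannot be ranked against another gene.

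IL6ST, the shared gp130 chain, was well above background on all 12 arrays through each of its 7 probes. The leading probe read 1.40, 1.66 and 1.47 in P1 ACM and 1.70, 1.87 and 2.19 in P1 DMEM. At P3 it read 1.44, 1.85 and 1.32 in ACM and 1.68, 1.80 and 1.90 in DMEM. Every P1 ACM array lay below every P1 DMEM array, while the P3 groups overlapped.

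LIFR, the chain bound by LIF, was also well above background on every array. Its levels were -2.51, -2.49 and -2.64 in P1 ACM, -3.00, -2.63 and -2.98 in P1 DMEM, -2.37, -2.64 and -2.77 in P3 ACM, and -2.72, -2.76 and -2.68 in P3 DMEM. The spread over all 12 arrays was 0.62, the narrowest among the leading probes of the 10 genes. Promoter windows of LIFR were the only ones among the 10 genes that held a STAT consensus, TTCNNNGAA (the same letters on both strands), in the 250 bases before a RefSeq start, and they are shown because STAT3 is the factor of this route. The stretches below are from RefSeq on GRCh38.p14, both on the minus strand, with the match in capitals.
LIFR, chr5:38595532-38595600 (-), match 165 bases before the start: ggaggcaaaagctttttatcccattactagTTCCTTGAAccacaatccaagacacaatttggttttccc
LIFR, chr5:38557611-38557679 (-), match 182 bases before another start: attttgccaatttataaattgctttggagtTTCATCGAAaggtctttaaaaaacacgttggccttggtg
These were 2 of 18 windows of the 10 genes, and 6.57% of all 35116 promoter windows in the table held the same letters. The narrower motif TTCCNGGAA, which TTCNNNGAA includes, was in 0.968% of all windows and in none (0) of the 18, the 2 windows of SOCS3 and the single window of PIM1 included. A match in letters does not show that STAT3 binds there.

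OSMR, the signalling chain for oncostatin M, was well above background on every array. It read 2.55, 2.36 and 1.69 in P1 ACM against 1.76, 1.16 and 2.03 in P1 DMEM, and 2.08, 1.28 and 1.82 in P3 ACM against 1.70, 1.46 and 1.45 in P3 DMEM. P1 ACM replicates 1 and 2 were the highest of all 12 arrays, and P1 ACM replicate 3 lay within the range of the P1 DMEM arrays.

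The receptors that bind interleukin 6 and CNTF were dim. IL6R was well above background on 9 of 12 arrays, at -5.28, -4.93 and -4.83 in P1 ACM and -6.40, -5.48 and -5.46 in P1 DMEM. At P3 it read -4.63, -6.23 and -6.46 in ACM and -5.13, -5.93 and -5.48 in DMEM. It was not well above background in P1 DMEM replicate 1 and in P3 ACM replicates 2 and 3, which all lay on slide 2.

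CNTFR was well above background on 8 of 12 arrays. Its levels were -6.41, -5.81 and -3.89 in P1 ACM, -7.65, -6.36 and -4.33 in P1 DMEM, -6.90, -7.71 and -4.38 in P3 ACM, and -6.38, -5.99 and -4.22 in P3 DMEM. Replicate 3 was the highest array in each of the 4 groups.

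**Figure D1:**
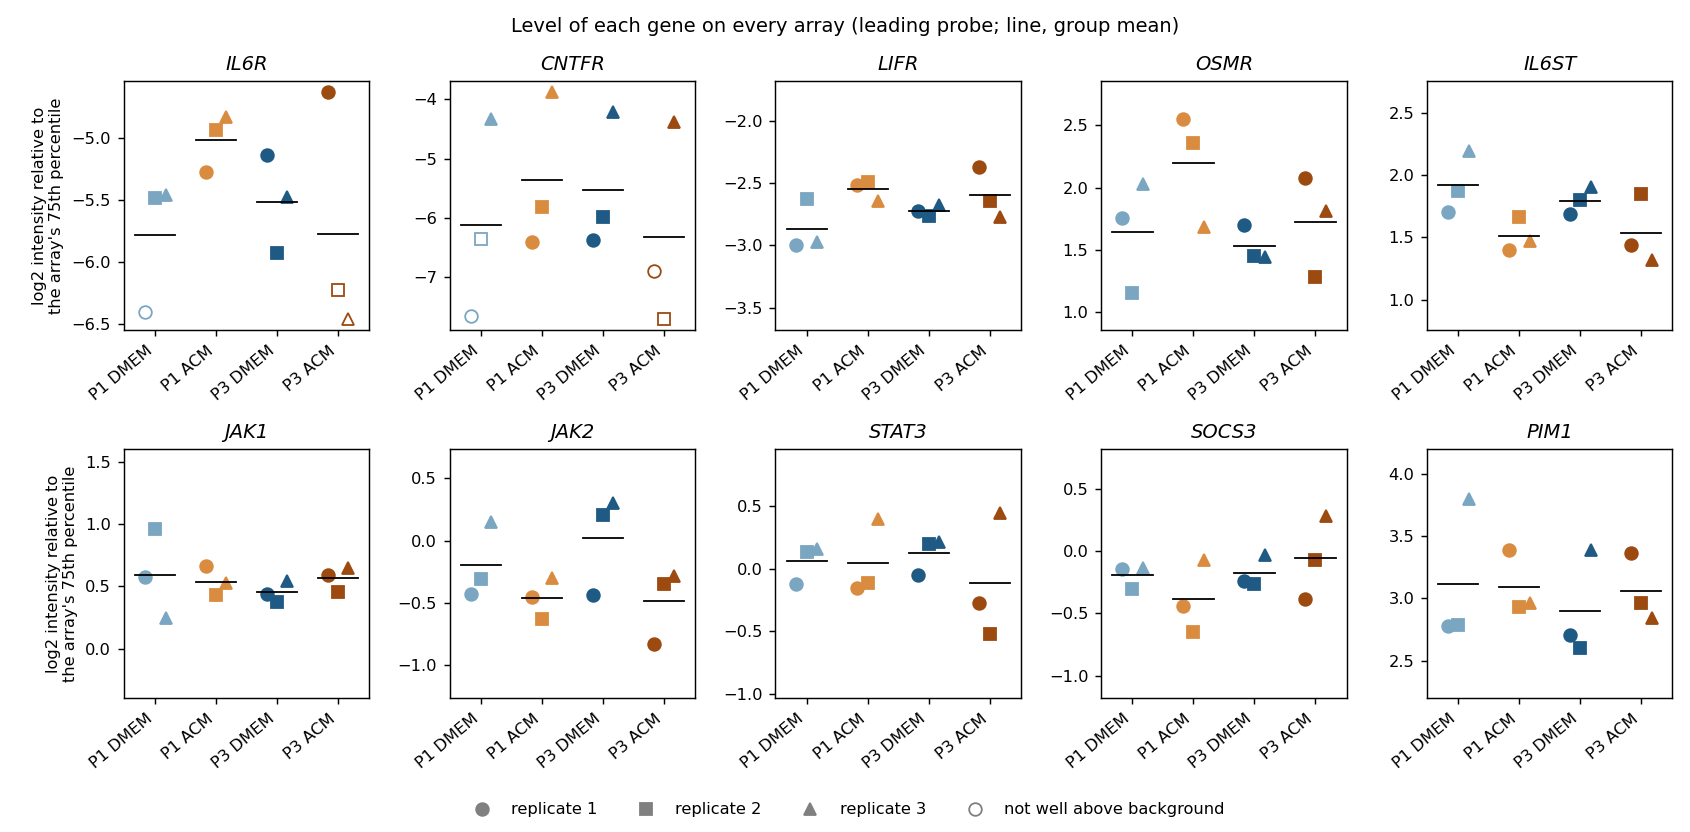
Level of each of the 10 genes (log2 intensity, with the 75th percentile of its array as 0, each panel on its own scale of at least 2 units) in the 4 groups. Each point is 1 array, its shape gives the replicate number, open points were not well above background, and lines are group means. IL6ST in P1 lies lower in all 3 ACM arrays, and CNTFR lies highest in replicate 3 of every group.

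The kinases and STAT3 itself were measured on all 12 arrays. JAK1, a kinase bound to gp130, read 0.66, 0.43 and 0.52 in P1 ACM and 0.57, 0.96 and 0.24 in P1 DMEM, and 0.59, 0.45 and 0.65 in P3 ACM against 0.44, 0.37 and 0.54 in P3 DMEM. JAK2, its partner kinase, read -0.45, -0.63 and -0.30 in P1 ACM, -0.43, -0.31 and 0.15 in P1 DMEM, -0.83, -0.35 and -0.28 in P3 ACM, and -0.43, 0.21 and 0.30 in P3 DMEM. The groups of both kinases overlapped at both passages. STAT3 read -0.15, -0.12 and 0.40 in P1 ACM, -0.12, 0.14 and 0.16 in P1 DMEM, -0.27, -0.52 and 0.45 in P3 ACM, and -0.05, 0.20 and 0.22 in P3 DMEM, with replicate 3 the highest array in each group.

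The target genes of the route were read as RNA, after passages of 48 h. STAT3 phosphorylation and earlier times were not measured, so these levels do not show whether the route was active. SOCS3, the feedback inhibitor, read -0.44, -0.65 and -0.07 in P1 ACM against -0.14, -0.31 and -0.13 in P1 DMEM. At P3 it read -0.38, -0.07 and 0.28 in ACM against -0.24, -0.27 and -0.03 in DMEM. PIM1 read 3.39, 2.93 and 2.96 in P1 ACM against 2.78, 2.78 and 3.80 in P1 DMEM, and 3.36, 2.96 and 2.84 in P3 ACM against 2.70, 2.60 and 3.39 in P3 DMEM. The ACM and DMEM arrays of both genes overlapped at both passages.

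To test whether ACM altered these genes, the groups were compared with limma in 1 fit over the 12 arrays, with p-values adjusted by Benjamini-Hochberg over all 31078 probes kept. At P1, SOCS3 differed by -0.19 (ACM minus DMEM, log2, SE 0.21, 95% confidence interval -0.65 to 0.26, adjusted p = 0.680), PIM1 by -0.03 (SE 0.31, interval -0.71 to 0.66, adjusted p = 0.980) and STAT3 by -0.02 (SE 0.25, interval -0.57 to 0.54, adjusted p = 0.985). At P3, SOCS3 differed by 0.12 (interval -0.33 to 0.57, adjusted p = 0.887), PIM1 by 0.16 (interval -0.53 to 0.85, adjusted p = 0.904) and STAT3 by -0.24 (interval -0.80 to 0.32, adjusted p = 0.816). None of these intervals reaches a 2-fold change in either direction. With slide as a block PIM1 was 1.02 higher in ACM at P3 (adjusted p = 0.977), the only setting that put 1 of the 10 genes past the thresholds at either passage. That value rests on arrays of P1. On slide 2, PIM1 in P3 ACM replicates 2 and 3 minus P1 DMEM replicates 1 and 2 was 0.12. On slide 3, P3 DMEM minus the single array P1 DMEM replicate 3 was -0.90. For STAT3 a second probe gave 0.12 at P1 and 0.39 at P3, with intervals of -0.89 to 1.13 and -0.62 to 1.40.

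**Figure D2:**
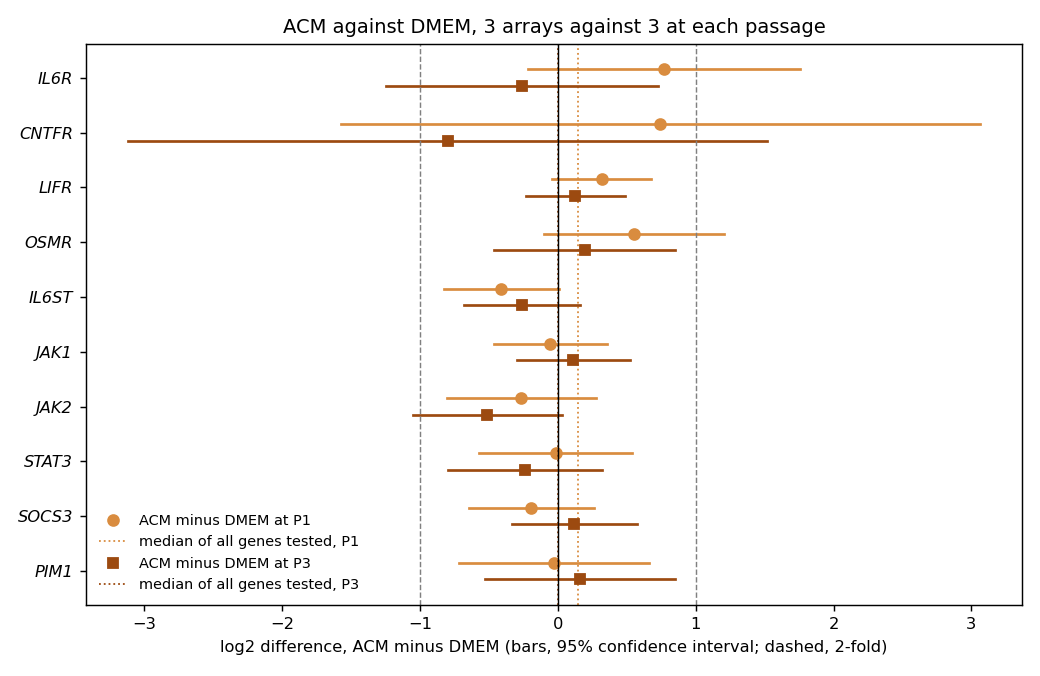
Difference between ACM and DMEM (x axis, log2) for each gene at P1 and P3, 3 arrays against 3, from the limma fit. Bars are 95% confidence intervals, dashed lines mark a 2-fold change and dotted lines the median of all genes tested, which is 0.15 at P1 and 0.00295 at P3. Every interval includes 0.

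Among the receptors, the P1 difference of IL6ST was -0.41 (SE 0.19, interval -0.83 to 0.01, adjusted p = 0.228). ACM was lower in all 3 arrays, and the exact permutation test gave p = 0.1, the smallest that 3 arrays against 3 allow. The 7 probes of IL6ST gave P1 differences between -0.55 and -0.30, and for 2 of them the groups did not overlap. These probes read the same RNA and are not independent. Between the DMEM groups the 7 probes differed by -0.89 to -0.13 (P3 minus P1, log2), with adjusted p of at least 0.571. At P3 IL6ST differed by -0.26 (interval -0.68 to 0.16, adjusted p = 0.757). With slide as a block its differences were -0.13 at P1 and 0.19 at P3. OSMR was 0.55 higher in P1 ACM (interval -0.10 to 1.20, adjusted p = 0.310) and differed by 0.19 at P3 (interval -0.46 to 0.85, adjusted p = 0.875). Under the labels of the deposited table OSMR had the opposite sign, at -0.41 at P1 and -0.92 at P3 (adjusted p = 0.131). LIFR differed by 0.32 at P1 (interval -0.04 to 0.68, adjusted p = 0.283) and by 0.13 at P3 (adjusted p = 0.852).

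**Figure D3:**
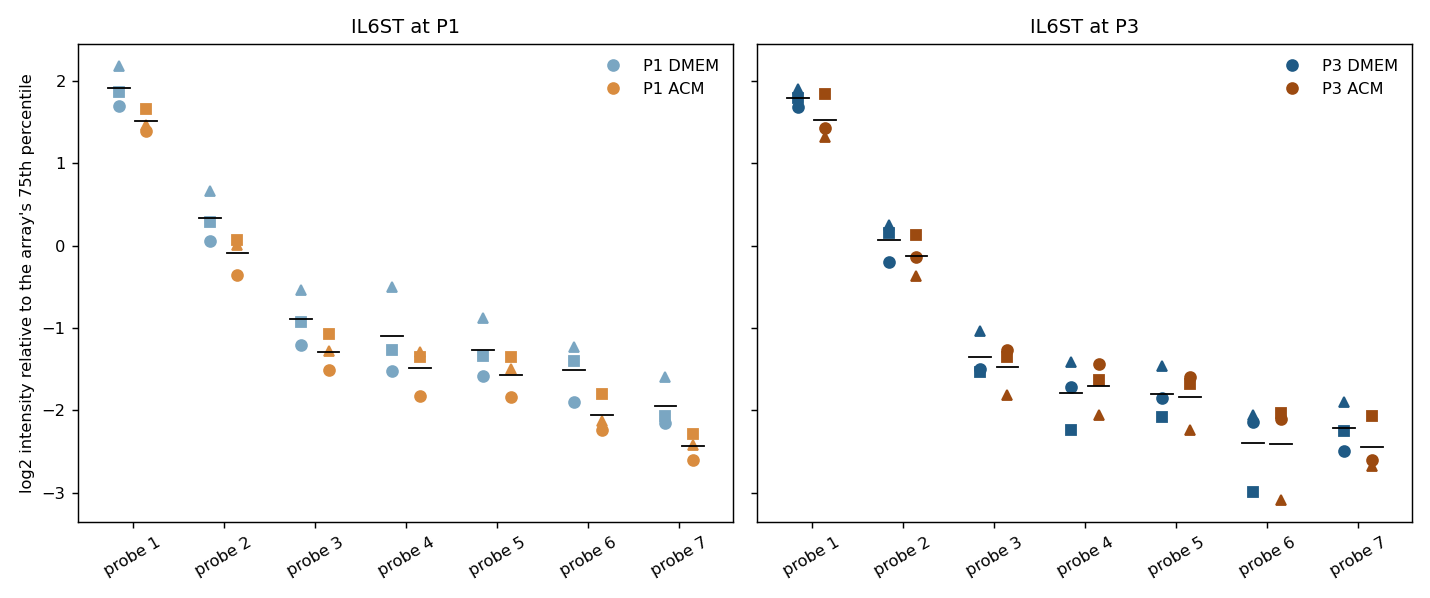
Level of the 7 probes of IL6ST (log2 intensity, with the 75th percentile of its array as 0) at P1 and P3, numbered from the brightest. Each point is 1 array, circles, squares and triangles are replicates 1, 2 and 3, and lines are group means. At P1 the ACM mean lies below the DMEM mean for every probe, by 0.30 to 0.55, and for 2 probes the arrays of the groups do not overlap.

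The remaining receptors gave wide intervals. IL6R was 0.77 higher in P1 ACM (interval -0.21 to 1.75, adjusted p = 0.353), with no overlap between the groups (exact permutation p = 0.1). IL6R was well above background on all 3 P1 ACM arrays and on 2 of 3 P1 DMEM arrays, and its difference became -0.12 after quantile normalization, -0.79 in the fit with slide as a block and -0.45 under the labels of the deposited table. At P3 IL6R differed by -0.26 (adjusted p = 0.887). CNTFR differed by 0.74 at P1 (SE 1.05, interval -1.57 to 3.06, adjusted p = 0.775) and by -0.80 at P3 (interval -3.12 to 1.52, adjusted p = 0.852). With the replicate number as a block the SE fell to 0.36, with adjusted p = 0.255 at P1 and 0.543 at P3, and all 3 same-number differences were above 0 at P1 (1.24, 0.55 and 0.44) and below 0 at P3 (-0.52, -1.72 and -0.16). With this block after quantile normalization CNTFR was at -0.0896 at P1 and -0.92 at P3 (adjusted p = 0.328). JAK1 differed by -0.05 at P1 and 0.11 at P3, and JAK2 by -0.27 and -0.51 (P3 interval -1.05 to 0.03, adjusted p = 0.702).

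The counts for the 10 genes were read against all genes. At P1, 0 of 10 passed the thresholds in either direction, where 13.5% of all genes were called higher and 0.0989% lower. Among the 20096 genes with a leading probe well above background on all 12 arrays, 4.35% were called higher and 0.124% lower. Of the 10 genes, 8 had such a probe. No member reached an unadjusted p of 0.05, which 24.0% of all genes did, and 2 of 10 (IL6ST and IL6R) had groups that did not overlap, against 36.0% of all genes. The median difference of the 10 genes at P1 was -0.02, and that of all genes was 0.15. After quantile normalization the median of all genes at P1 was 0.00062, 3.58% of all genes were called higher and 0.910% lower, and 0 of the 10 were called. The balance at P1 turned round with slide as a block, at 0.613% higher and 1.49% lower, and under the labels of the deposited table, at 0.266% and 1.31%, again with 0 of the 10 called. At P3, 0 of 10 were called, against 0.914% of all genes higher and 0.819% lower, none reached an unadjusted p of 0.05 (7.28% of all genes), and no member had separate groups (9.77% of all genes). Quantile normalization gave 0.744% of all genes higher and 1.18% lower at P3. No gene on the array passed an adjusted p of 0.05 at either passage in the fit over 12 arrays. At P1 this count rested on how the spread was estimated, with 4849 genes past it when only the P1 arrays were fitted, 5185 without P3 ACM replicate 1, 2539 without replicate 1 of every group and 2095 by the methods' t-test, but none (0) of the 10 genes passed it under any of the alternatives. The lowest adjusted p among the 10 in these settings was 0.0941, for IL6R at P1 without P3 ACM replicate 1.

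The difference between the ACM effects of the passages was tested with an interaction term, and 0 of 10 genes reached p of 0.05, which 8.24% of all genes did. The largest estimates were -1.54 for CNTFR (P3 minus P1, SE 1.49, adjusted p = 0.889) and -1.03 for IL6R (SE 0.63, adjusted p = 0.727). With the replicate number as a block, CNTFR passed this threshold (adjusted p = 0.639). Passages were also compared in the DMEM groups, without ACM. Only P1 DMEM replicate 3 shared a slide with the P3 DMEM arrays, so time in culture and slide cannot be fully told apart. None (0) of the 10 leading probes differed between P3 and P1 DMEM past the thresholds, where 1.14% of all genes were higher and 0.582% lower. The second probe of STAT3 was lower in P3 DMEM by 1.04 on the log2 scale (fit value -1.04, SE 0.46, adjusted p = 0.571), with no overlap, while the leading probe differed by 0.06 (adjusted p = 0.938), so the probes of STAT3 disagreed.

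Levels of CNTFR were grouped by replicate number. Over the 4 groups CNTFR had a mean of -4.20 ± 0.22 (SD, n = 4) in the replicate 3 arrays, -6.83 ± 0.59 in replicate 1 and -6.47 ± 0.86 in replicate 2. The 4 replicate 3 arrays, between -4.38 and -3.89, did not overlap the other 8, and they lay on all 3 slides. STAT3 averaged 0.31 ± 0.14 in replicate 3, -0.15 ± 0.09 in replicate 1 and -0.08 ± 0.33 in replicate 2, with overlap. No other member had a replicate number whose arrays stood apart from the rest. Other genes of the route did. STAT5B read 1.72 to 1.88 in replicate 1 and at most 1.61 in the other arrays. SOCS5 read -1.087 to -0.784 in replicate 3 and at least -0.781 in the other arrays. How many of all genes split by replicate number was not counted, so the split cannot be called particular to CNTFR. Under the labels of the deposited table the 4 brightest CNTFR columns were P1 ACM 3, P3 ACM 2, P1 DMEM 2 and P3 DMEM 1, between 6.71 and 6.93 on its log2 scale, against 3.45 to 5.05 for the other columns. The reason for the split of CNTFR was not tested.

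PIM1 showed another pattern. ACM minus DMEM of the same replicate number was 0.61 for replicate 1, 0.15 for replicate 2 and -0.84 for replicate 3 at P1, and 0.66, 0.37 and -0.55 at P3. ACM was thus higher in replicates 1 and 2 and lower in replicate 3 at both passages. The ligand gene IL6, which encodes interleukin 6, did the same over a wider range. IL6 read 1.80, 1.97 and -0.67 in P1 ACM against 0.45, 0.50 and 2.57 in P1 DMEM, and 3.33, 2.27 and -0.75 in P3 ACM against -0.65, -0.22 and 2.41 in P3 DMEM. The same-number differences of IL6 were 1.35, 1.47 and -3.24 at P1 and 3.98, 2.49 and -3.16 at P3. Over all replicates the IL6 difference was therefore -0.14 at P1 (adjusted p = 0.971) and 1.10 at P3 (SE 1.16, adjusted p = 0.816). IL11, another cytokine that signals through gp130, had same-number differences of 0.84, 0.66 and -1.24 at P1 and 1.69, 1.99 and -0.72 at P3. LIF had -0.23, 0.27 and -2.20 at P1 and 1.65, 2.65 and -1.78 at P3.

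Leaving out 1 replicate number from every group, a choice made after these values were seen, showed how far the ligand values rest on replicate 3. Without replicate 3, IL6 was 3.23 higher in ACM at P3 (SE 0.36, adjusted p = 0.237), IL11 was 1.84 higher (adjusted p = 0.279), LIF 2.15 higher (adjusted p = 0.291) and EBI3, a subunit of interleukin 27, 1.10 higher (adjusted p = 0.315), each past both thresholds but not past adjustment. With replicate 3 left out, 2.83% of all genes were called higher at P3 and 1.71% lower. Over all replicates the P3 means in ACM and DMEM were 2.87 and 1.89 for IL11, 1.01 and 0.17 for LIF, and -1.47 and -1.99 for EBI3. None of these passed the thresholds. At P1 the leading probe of LIF had means of 0.80 in ACM and 1.52 in DMEM. Its second, dimmer probe went the other way, at -4.01 and -4.52. Without replicate 1 the IL6 difference at P3 was -0.33, and without replicate 2 it was 0.41, neither past the thresholds. At P1 without replicate 3, IL6 was 1.41 higher (adjusted p = 0.267) and past both thresholds. In the same setting PIM1 differed by 0.38 at P1 (adjusted p = 0.465) and 0.51 at P3 (adjusted p = 0.465), and SOCS3 by -0.32 and 0.02. OSMR differed by 0.998 at P1 (adjusted p = 0.267), just under 2-fold, and by 0.11 at P3, and 0 of the 10 genes passed both thresholds at either passage. Under the labels of the deposited table IL6 differed by -1.73 at P1 and 0.42 at P3, neither past the thresholds. The cause of the opposite sign in replicate 3 was not tested. Whether the media of replicate 3 are labelled correctly cannot be told from the files, and the ACM minus DMEM values above take the labels as given.

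**Figure D4:**
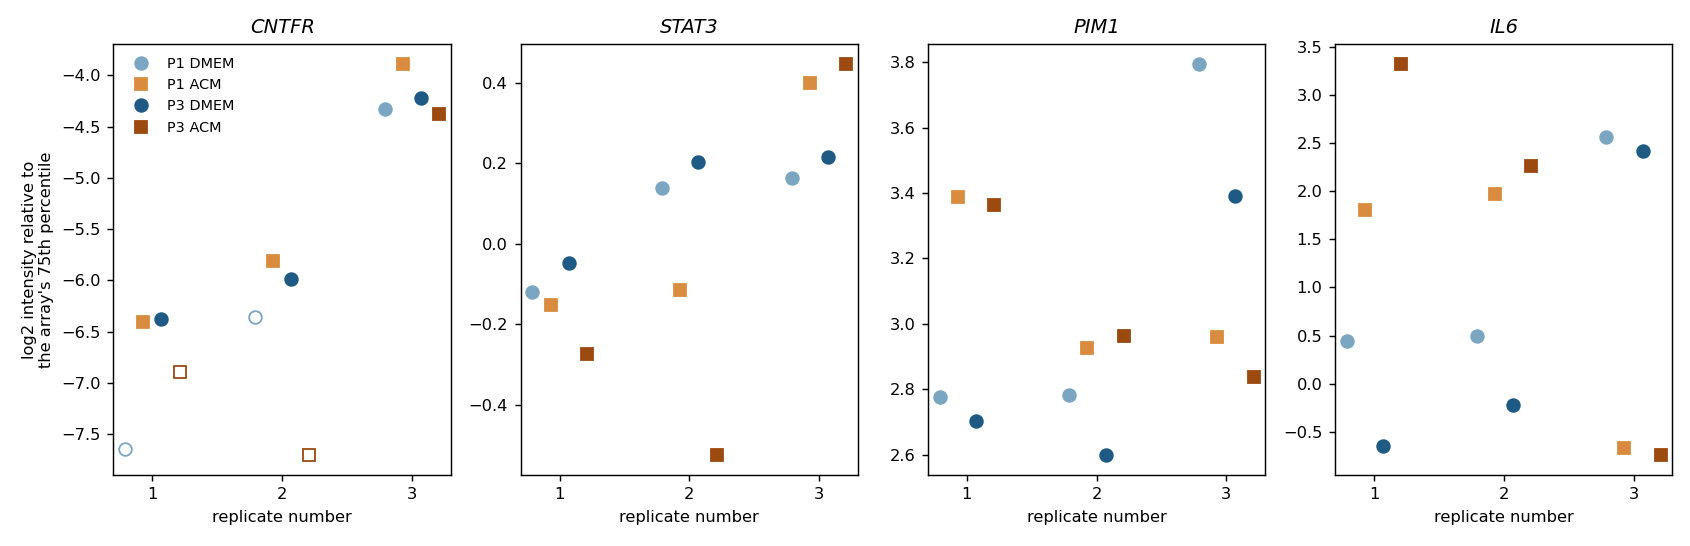
Level of CNTFR, STAT3, PIM1 and IL6 (log2 intensity, with the 75th percentile of its array as 0) by replicate number, 1 point per array. Circles are DMEM, squares are ACM and open points were not well above background. CNTFR lies highest in replicate 3 of all groups, and for PIM1 and IL6 the ACM arrays lie above the DMEM arrays of the same passage in replicates 1 and 2 and below them in replicate 3.

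The rest of the route was covered by 70 further genes, of which 69 were on the array and 66 were tested. The gene with no probe assigned was IL11RA, listed among the other receptors of the family. At P1, 4 of the 66 were called, all higher in ACM, a share below the 13.5% of all genes called higher. That 13.5% includes dim genes. Among the 20096 genes well above background on all 12 arrays, 4.35% were called higher. Of the 10 ligands tested 1 was called, OSM, the gene of oncostatin M, at 1.19 (SE 0.44, adjusted p = 0.135). The 6 other receptors of the family and the 8 other JAK and STAT genes gave none (0), as did the 2 enzymes that shed IL6R from the cell surface. Among 15 inhibitors 1 was called, PTPN6, a phosphatase that acts on Janus kinases, at 1.32 (adjusted p = 0.125). Of 25 STAT3 target genes 2 were called, A2M, a protease inhibitor of plasma, at 1.84 (adjusted p = 0.103) and LBP, which binds lipopolysaccharide, at 1.24 (adjusted p = 0.153). All 4 were dim genes. OSM was well above background on all 3 P1 ACM arrays and 2 of 3 P1 DMEM arrays, and PTPN6, LBP and A2M on 3 and 1. With slide as a block the differences were -0.39 for OSM, -0.40 for PTPN6, -0.63 for LBP and 0.27 for A2M, none past the thresholds, and 0 pathway genes were called at P1 when each probe had to be well above background on all 12 arrays.

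At P1 12 of the 66 genes reached an unadjusted p of 0.05, against 24.0% of all genes, with 10 of the 12 higher in ACM and the 4 called genes included. Of the 8 under 2-fold, SOCS2, a related feedback inhibitor, was 0.68 higher in ACM with no overlap between groups (SE 0.25, adjusted p = 0.135). SOCS1 was 0.59 higher (adjusted p = 0.191), also without overlap. IRF1, a transcription factor of interferon signalling, was at -0.91 (adjusted p = 0.208), and CLCF1, a ligand that acts through CNTFR, at -0.56 (adjusted p = 0.207). The remaining 4, named after their values were seen, were IL12RB2, a receptor chain, at 0.85, PIAS1, an inhibitor of STAT signalling, at 0.71, HP, the gene of haptoglobin, at 0.59 and JAK3 at 0.51, with adjusted p between 0.111 and 0.158. With slide as a block these were -0.10 for SOCS2, -0.22 for SOCS1, -0.44 for IRF1 and 0.01 for CLCF1, and 0.59 for IL12RB2, -0.08 for PIAS1, 0.01 for HP and -0.08 for JAK3. CISH differed by 0.23, TYK2 by 0.25, STAT5B by 0.22 and CNTF by -0.33, each with adjusted p above that of SOCS2. Over the 25 STAT3 targets 8 differences were above 0 and 17 below, with a median of -0.25 against 0.15 for all genes. The median of all genes depended on the setting. It was 0.0479 for probes well above background on all 12 arrays, as for 20 of the 25 targets. After quantile normalization it was 0.00062, and with slide as a block -0.0442. The median of the targets was not taken in these settings.

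At P3 none (0) of the 66 genes was called or reached an unadjusted p of 0.05. The STAT3 targets had a median of -0.08 there, with 11 above 0 and 14 below. SOCS2 differed by 0.02 and SOCS1 by 0.46, CNTF by -0.26, CLCF1 by -0.13, CISH by -0.25, TYK2 by 0.14 and STAT5B by 0.12. A2M, LBP, PTPN6 and OSM, called at P1, were at 0.28, -0.30, -0.41 and 0.30. The difference between passages reached p of 0.05 for 3 of 66 genes (8.24% of all genes), PTPN6 at -1.73 (adjusted p = 0.626), LBP at -1.54 (adjusted p = 0.634) and CCND1 at 1.00 (adjusted p = 0.627). Between P3 and P1 DMEM, 2 of the 66 passed the thresholds (1.14% of all genes higher and 0.582% lower), FOS, an early response gene, at 1.53 (adjusted p = 0.571) and CCND1, which encodes cyclin D1, at -1.09 (adjusted p = 0.571).

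**Figure D5:**
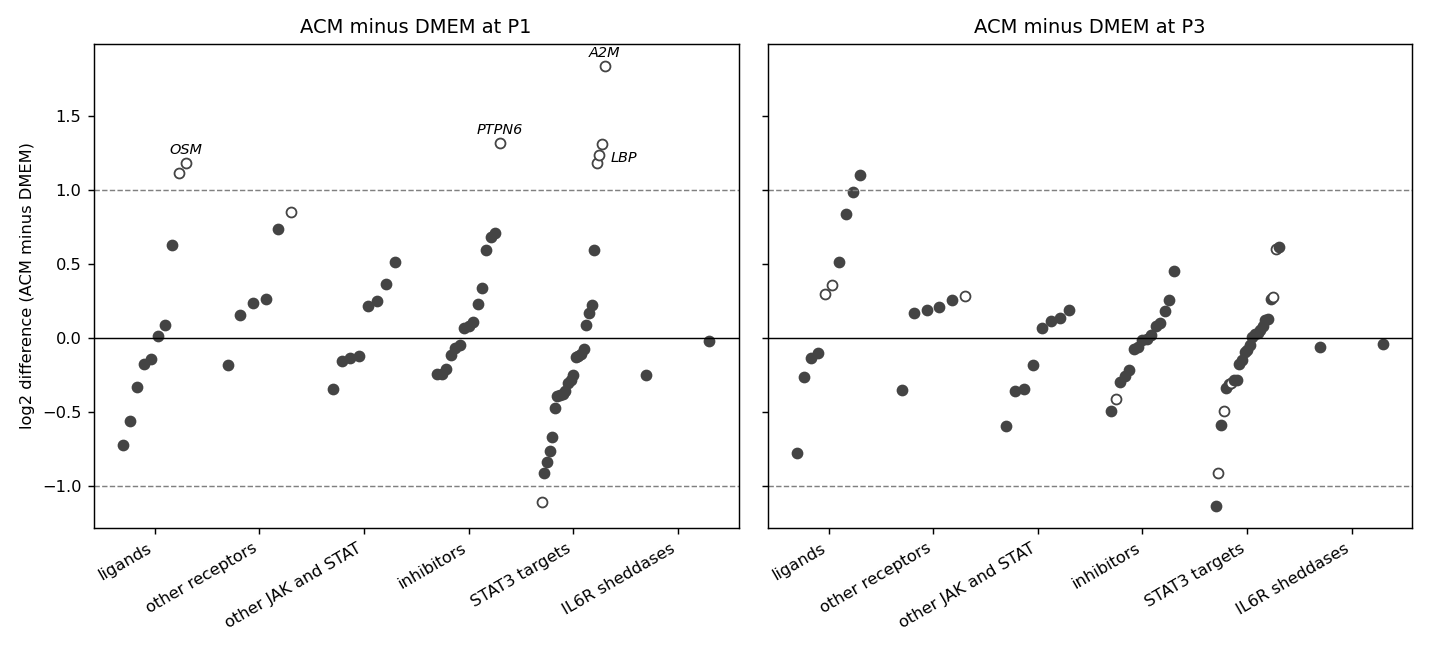
Difference between ACM and DMEM (y axis, log2) for the 66 further genes of the route by role, at P1 and P3. Filled points are genes well above background on all 12 arrays, open points are dimmer ones, dashed lines mark a 2-fold change, and genes past both thresholds are named. The 4 named genes at P1 are open points and none is named at P3.

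As a description, the genes whose levels over the 12 arrays followed STAT3 most closely, of 15519 genes well above background on every array, were COLEC12 (Pearson's r = 0.96), MAPK9 (0.95) and CWC25 (0.94). For SOCS3 they were USP20 (0.87), NKX3-2 (0.86) and CBLB (0.86). STAT3 and SOCS3 correlated by 0.48, and STAT3 and CNTFR by 0.84. The 12 arrays share slides and replicate numbers, so these values are not independent observations.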

How the data were processed

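The authors deposited the scanner output of each array, in which a spot has a background-corrected intensity from Agilent Feature Extraction 11.0.1.1, not normalized between arrays, and a table of log2 values of 30569 probes whose normalization is not given in the sources used here. Here 1377 control spots and outlier spots were left out, repeated spots were averaged, and each array's log2 intensities were centred on their 75th percentile. Of 34127 probes 31078 were kept, and 25771 (75.5%) had a symbol through RefSeq of GRCh38.p14. Groups were compared with limma 3.58.1 in R 4.3.3 (lmFit, eBayes, two-sided, 12 arrays, 8 residual degrees of freedom). In simulated data with a log2 change of 2 set in 200 of 31078 probes, the fit called 100% of them at P1 and 100% at P3. Smaller changes were not tried, and how small a change could be found in the 10 genes was not tested. The text names the 10 genes, every pathway gene called and fixed examples by role. Members and lists were chosen with earlier results of these data known. Deviations of same-numbered samples from their group means had correlations of 0.43, 0.19 and 0.27 at P1 and of 0.23, -0.19 and 0.06 at P3. The main fit and the permutation test used no pairs. Only the replicate block and the same-number differences, given at both passages, treat the numbers as pairs. Alternatives changed the normalization, background correction, dim-probe filter, source of values, samples fitted, test, replicate block and slide block, and left out arrays. Promoter windows were searched on both strands. Protein sequences were not used here. The values of 1 pathway gene are not reported here. Figures were drawn with matplotlib 3.10.9.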

Additional observations from a re-analysis of the deposited data

How the results depend on the processing

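At P1 0 of the 10 genes were called under every alternative run, and at P3 under every one except slide as a block, which called 1, PIM1. Of 556 differences of single genes under alternatives, 498 kept direction and side of the thresholds, 57 changed sign and 1 passed the thresholds. All but 1 of the sign changes (OSMR at P3 in the deposited table) had p above 0.05, and the cause was not tested.

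With slide as a block (log2, ACM minus DMEM) STAT3 was 0.27 at P1, SOCS3 0.32 at P1, PIM1 1.02 at P3, JAK1 -0.42 at P3, JAK2 0.42 at P1 and 0.18 at P3, IL6ST 0.19 at P3, IL6R -0.79 at P1, LIFR -0.0738 at P1 and -0.15 at P3, and CNTFR 2.16 at P3. Without a change of sign, CNTFR moved to 2.49 at P1 and OSMR to 0.21 at P1 and 0.58 at P3. With slide as a random block STAT3 was 0.069 at P1, JAK1 -0.0756 at P3 and CNTFR 0.17 at P3. Under the labels of the deposited table STAT3 was 0.21 at P1, SOCS3 0.21 at P1, PIM1 -0.30 at P3, JAK1 0.29 at P1 and -0.11 at P3, JAK2 0.058 at P1 and 0.53 at P3, IL6ST 0.21 at P3, IL6R -0.45 at P1, OSMR -0.41 at P1 and -0.92 at P3, and CNTFR 0.14 at P3. With quantile normalization, both with the replicate block and without it, PIM1 was 0.0719, IL6R -0.119 and CNTFR -0.0896 at P1. After normexp STAT3 was 0.0793, PIM1 0.0963, JAK1 0.0421, IL6R -0.116 and CNTFR -0.0745 at P1 and LIFR -0.0385 at P3. As the mean of its probes STAT3 was 0.0513 at P1 and 0.074 at P3.

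Leaving out arrays gave ranges of -0.19 to 0.10 at P1 and -0.52 to 0.0027 at P3 for STAT3, -0.0497 to 0.28 at P3 for SOCS3, -0.35 to 0.38 at P1 and -0.0929 to 0.51 at P3 for PIM1, -0.23 to 0.19 at P1 for JAK1, -0.83 to 0.10 at P3 for IL6R and -0.0247 to 1.64 at P1 for CNTFR. These ranges include leaving out a replicate number from all groups, which, like the replicate block with quantile normalization, was chosen after seeing the data. For the difference between passages 0 to 1 of the 10 genes passed p of 0.05, IL6R without P3 ACM replicate 1 (11 other pathway genes in place of 3) or without all replicates 1, and CNTFR without all replicates 3. In these settings 6140, 5202 and 1240 of all 25275 genes passed it. Slide as a block called 1, PIM1 (979 of 25275 genes), and the replicate block 1, CNTFR (2035 of 25275 genes).

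The 4 other pathway genes called at P1 became 2 under quantile normalization, 1 under normexp, 1 in the deposited table, 0 with only probes well above background on each of the 12 arrays, 1 with slide as a block, 0 with slide as a random block and 1 to 6 with arrays left out (1 without replicate 2 of every group, 2 without P1 ACM replicate 3). Of all genes, 3.58% were called higher and 0.910% lower under quantile normalization. The same shares were 0.736% and 0.146% under normexp, and 0.266% and 1.31% in the deposited table. They were 4.35% and 0.124% on the probes bright on all arrays, 0.613% and 1.49% with slide blocked, and 1.60% and 0.0554% with slide random. Without replicate 2 of every group they were 6.50% and 0.115%, and without P1 ACM replicate 3 they were 12.2% and 0.198%. The 0 at P3 became 3 in the deposited table, 1 with the replicate block under either normalization, 1 in the fit with slide as a block, and 0 to 6 with arrays left out, with 6 without replicate 3 of every group. Of all genes, 1.97% were higher and 4.14% lower at P3 in the deposited table, and 2.83% and 1.71% without replicate 3. The shares were 0.981% and 0.942% with the replicate block, 0.827% and 1.45% with it after quantile normalization, and 1.54% and 1.17% with slide blocked. The 3 for the difference between passages became 8 with slide as a block, 1 after normexp, 1 with slide as a random block, 1 with the replicate block after quantile normalization and 0 to 11 with arrays left out. Of all 25275 genes, 979 passed with slide as a block, 910 after normexp and 319 with slide as a random block. With the replicate block after quantile normalization 1535 passed. The 2 between the DMEM groups became 0 in the deposited table, 7 with slide as a block, 1 with the replicate block, alone or after quantile normalization, and 0 to 4 with arrays left out. Of all genes, 0.418% were higher and 0.149% lower in the deposited table, and 0.400% and 1.55% with slide as a block. With the replicate block the shares were 1.34% and 0.748%, and 1.17% and 0.819% after quantile normalization. The replicate block changed no other call. Signal over background limits IL6R and CNTFR, which were near background on 3 and 4 arrays.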
